A study of Homo sapiens with 12 samples.

Results

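The integrin subunits described here are the 10 that lie outside the hemidesmosome and were named for this report, ITGA1, ITGA2, ITGA3, ITGA5, ITGAV, ITGB1, ITGB3, ITGB5, ITGB6 and ITGB8. They are 10 of the 39099 genes obtained by summing a transcript table to genes. The RNA came from 2 established lines of human pancreatic cancer cells, PANC-1 and AsPC-1, each with a mock control, TAp63 overexpression or deltaNp63 overexpression. TP63 encodes a transcription factor of stratified epithelia, and its forms TAp63 and deltaNp63 start at different promoters, so that deltaNp63 lacks the N-terminal transactivation domain. Each of the 6 groups held 2 libraries that the labels call biological replicates, 12 in all. The vector, the way it was delivered and the time after delivery are not given in the sources used here, nor whether a line was pooled or a clone. Values are in TPM, a length-corrected share of the RNA in a library, so read depth is unknown and the spread between replicates sets the precision.

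Integrins are cell surface receptors made of an alpha and a beta subunit, which bind extracellular matrix outside the cell and couple to actin inside it. ITGB1 pairs with many alpha subunits, among them the collagen receptors ITGA1 and ITGA2, the laminin receptor ITGA3 and the fibronectin receptor ITGA5. ITGAV pairs with ITGB1, ITGB3, ITGB5, ITGB6 and ITGB8, and these receptors bind ligands that carry an RGD peptide. The receptors with ITGB6 and ITGB8 are known for releasing active TGF-beta from its latent complex, and ITGB6 is largely a subunit of epithelial cells.

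The cell line set the integrin repertoire, and neither p63 construct moved a subunit past the threshold. AsPC-1 had ITGB6 and ITGB8 and nearly no ITGB3. PANC-1 had ITGB3, over 10 times as much ITGA5 and nearly no ITGB6. Between the mock cultures, 5 of the 9 tested members were higher in PANC-1, 3 were lower and ITGAV did not pass. Of all tested genes, 72.5% passed in that comparison. With TAp63 or deltaNp63, 0 of 9 members passed in either line. ITGB6 came closest, at 16.3 TPM in AsPC-1 with mock and 22.2 TPM with deltaNp63.

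TP63 was read first as a check of the labels. Its level was at most 1.1 TPM in each mock library and at least 102 TPM in each library given a construct. This total does not tell the constructs apart. ENST00000440651, starting at 189631516, had at least 33.27 TPM in each TAp63 library and at most 0.2307 TPM in each deltaNp63 library. ENST00000456148, starting at 189789801, had at least 92.62 TPM in each deltaNp63 library and 0 in each TAp63 library. ENST00000449992, with that same start, held 35.7% to 40.0% of TP63 in the TAp63 libraries, which was not explained. The cultures also carried markers of their type. EPCAM, CDH1, KRT8, KRT18 and KRT19, which mark epithelial cells, all reached 1 TPM in every library. Their summed level, mostly of the KRT genes, was 7131 to 10554 TPM in AsPC-1 and 3483 to 3851 TPM in PANC-1. EPCAM and CDH1 differed far more, with EPCAM at a mean of 47.3 TPM in PANC-1 mock and 1314 TPM in AsPC-1 mock, and CDH1 at 2.96 and 91.6 TPM. CDH2, the cadherin of mesenchymal cells, had a mean of 21.5 TPM in PANC-1 mock and 0.0109 TPM in AsPC-1 mock. The other mesenchymal markers were present in both, with VIM at 4567 and 2218 TPM and ZEB1 at 22.6 and 15.7 TPM in the same order. Of 4 leukocyte markers, PTPRC and CD3E had means under 0.06 TPM in all groups and CD14 a mean of at most 0.328 TPM, while CD68, a lysosomal protein gene abundant in macrophages, had group means of 91.4 to 120 TPM in AsPC-1 and 270 to 279 TPM in PANC-1. The part of such cells in the results was not tested. The endothelial gene CDH5 and the pancreatic hormone genes INS and GCG had means under 0.06 TPM. LUM, a matrix gene of fibroblasts, stood at 204 TPM in AsPC-1 mock, while the fibroblast marker DCN was at 0.707 TPM and COL1A1 at 0.264 TPM there.

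The beta subunit common to the collagen, laminin and fibronectin receptors was the most abundant member. ITGB1 (ENSG00000150093, chromosome 10, 32887273 to 33005792, minus strand) was at 1464 and 1506 TPM in AsPC-1 mock, 1729 and 1536 TPM with TAp63, and 1903 and 1465 TPM with deltaNp63. In PANC-1 its values were 796 and 766 TPM with mock, 770 and 731 TPM with TAp63, and 734 and 726 TPM with deltaNp63. All 6 AsPC-1 libraries lay above all 6 PANC-1 libraries. By mean level it ranked 91 among all genes in AsPC-1 mock and 170 in PANC-1 mock.

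The alpha subunits that join ITGB1 were arranged differently in the cell lines. ITGA3 (ENSG00000005884, chromosome 17, 50055968 to 50090481, plus strand), which binds laminins, was at 171 and 230 TPM in AsPC-1 mock and at 516 and 559 TPM in PANC-1 mock. Among the 5 alpha subunits described here it was the most abundant in all 12 libraries. ITGA5 (ENSG00000161638, chromosome 12, 54395261 to 54419266, minus strand), which binds fibronectin, was at 6.57 and 8.3 TPM in AsPC-1 mock and at 96.7 and 109 TPM in PANC-1 mock. Its highest value in any AsPC-1 library was 9.52 TPM and its lowest in PANC-1 was 87.7 TPM.

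Collagen receptors differed less. ITGA2 (ENSG00000164171, chromosome 5, 52989340 to 53094779, plus strand) was at 48.3 and 47.7 TPM in AsPC-1 mock and at 64.2 and 80.5 TPM in PANC-1 mock. Over all groups its 6 AsPC-1 values, 36.9 to 53.5 TPM, stayed below the PANC-1 values, 56.4 to 80.5 TPM. For this and the other members, the share of all genes that separate the lines in this way was not counted. ITGA1 (ENSG00000213949, chromosome 5, 52787916 to 52959209, plus strand) was scarcely present, at 0.0856 to 0.274 TPM in AsPC-1 and 0.425 to 0.679 TPM in PANC-1. It did not reach 1 TPM in any library and was not tested, and the gene PELO lies inside it on the same strand, so even these values may belong in part to PELO.

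Summed over ITGA1, ITGA2, ITGA3, ITGA5 and ITGAV, the alpha RNA was 327 to 425 TPM in AsPC-1 and 729 to 831 TPM in PANC-1. ITGB1 RNA therefore amounted to 3.90 to 4.79 times that alpha sum in AsPC-1 libraries and 0.881 to 1.04 times in PANC-1 libraries. ITGA5 supplied 1.41% to 2.24% of the alpha sum in AsPC-1 and 11.5% to 13.4% in PANC-1. These are RNA ratios and say nothing of protein at the surface. ITGA6, left out of the sum as a hemidesmosome subunit although it also pairs with ITGB1, exceeded ITGA3 in every AsPC-1 library. It had 283 ± 30.7 TPM with AsPC-1 mock against 55.4 ± 0.0833 TPM with PANC-1 mock (SD, n = 2).

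**Figure D1:**
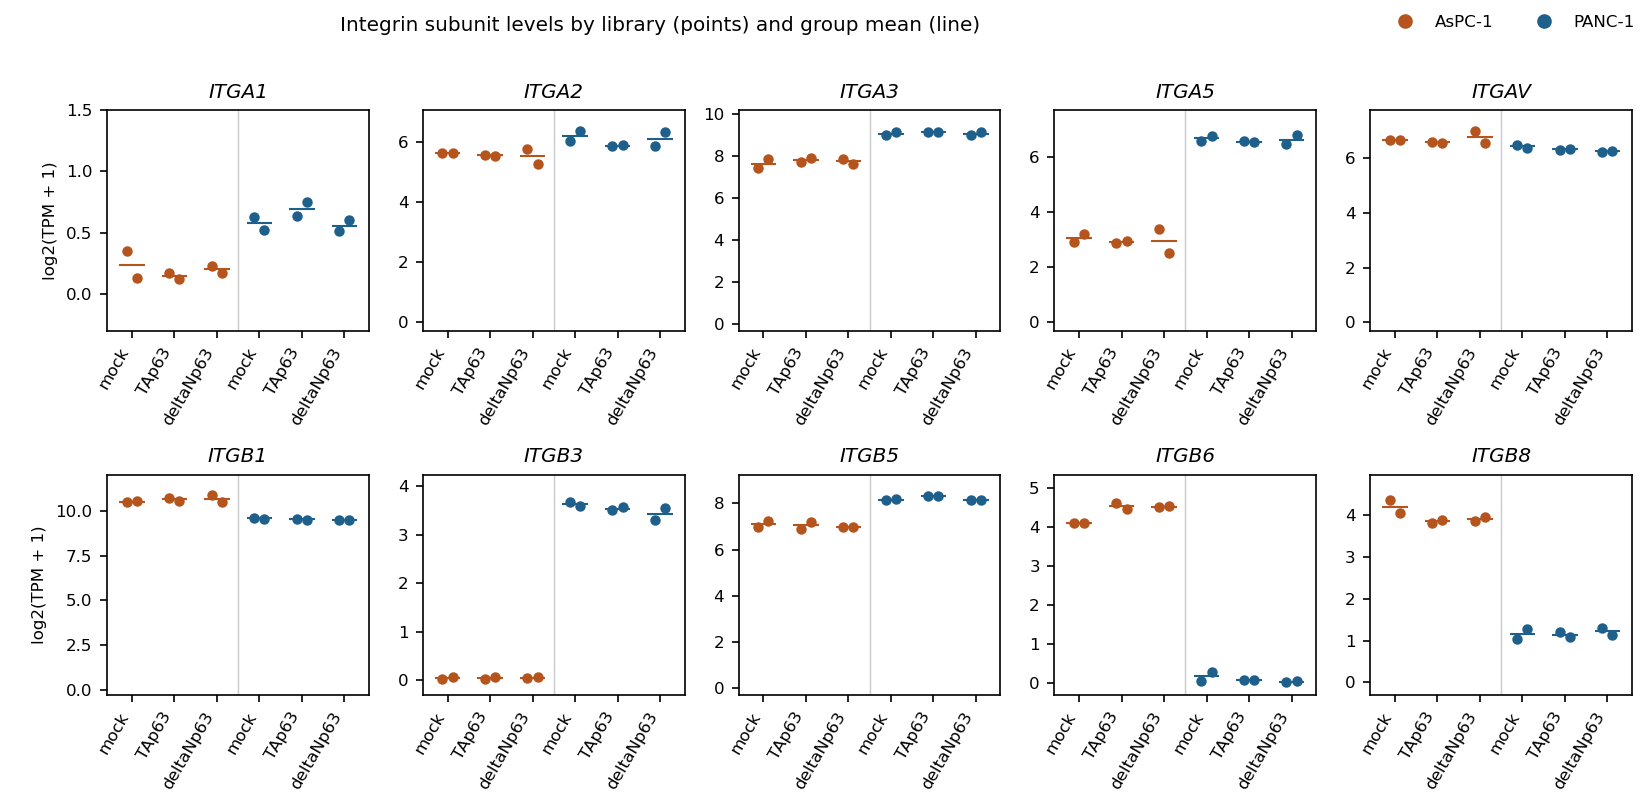
Level of each integrin subunit as log2(TPM + 1), with a point for each library, a line for the mean of a group, AsPC-1 in orange and PANC-1 in blue. ITGA5 and ITGB3 are high in the PANC-1 groups, ITGB6 and ITGB8 in the AsPC-1 groups, and the groups within a line lie close together.

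ITGAV itself differed less between the cell lines than its beta partners did. ITGAV (ENSG00000138448, chromosome 2, 186590010 to 186680901, plus strand) was at 101 and 99.4 TPM in AsPC-1 mock and at 88.8 and 81.3 TPM in PANC-1 mock. Over all groups the AsPC-1 values of ITGAV, 92.4 to 127 TPM, stayed above its PANC-1 values, 73.6 to 88.8 TPM. ITGB5 (ENSG00000082781, chromosome 3, 124761948 to 124901418, minus strand), a receptor subunit for vitronectin, was at 126 and 148 TPM in AsPC-1 mock and at 283 and 290 TPM in PANC-1 mock. Every PANC-1 library exceeded every AsPC-1 library, with 279 TPM as the lowest PANC-1 value and 148 TPM as the highest AsPC-1 value.

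ITGB3 was confined to PANC-1 at these levels. ITGB3 (ENSG00000259207, chromosome 17, 47253827 to 47313743, plus strand), a vitronectin receptor subunit best known from platelets and endothelium, ranged from 0.0238 to 0.0488 TPM over the 6 AsPC-1 libraries. The PANC-1 libraries held 11.7 and 11.1 TPM with mock, 10.3 and 10.9 TPM with TAp63, and 8.85 and 10.7 TPM with deltaNp63, and none came near the AsPC-1 values. ITGA2B, its alpha partner on platelets, had a mean of 0.559 TPM in PANC-1 mock.

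ITGB6 and ITGB8 had the opposite distribution. ITGB6 (ENSG00000115221, chromosome 2, 160099667 to 160200313, minus strand) was at 16.3 TPM in both AsPC-1 mock libraries, 23.9 and 21.1 TPM with TAp63, and 21.9 and 22.4 TPM with deltaNp63. In the 6 PANC-1 libraries it lay between 0.0200 and 0.223 TPM. ITGB8 (ENSG00000105855, chromosome 7, 20330702 to 20415754, plus strand) was at 19.4 and 15.5 TPM in AsPC-1 mock, 13.0 and 13.8 TPM with TAp63, and 13.6 and 14.5 TPM with deltaNp63. PANC-1 libraries held 1.05 to 1.46 TPM of ITGB8, so it was low there but above the level of ITGB6.

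Of the 10 subunits, 8 have promoter entries in the RefSeq table for GRCh38.p14, all but ITGA3 and ITGB3, and 3 are shown because their levels differ most between the lines among those with an entry. Each window runs from 250 bases before to 50 bases after the annotated start, read 5′ to 3′ on the strand of the gene. It holds the start of the most abundant transcript of that gene. Capitals mark matches on either strand. The motifs searched were the GC box, spelled GGGCGG, and the TATA box, spelled TATAAA. The AP-1 site was spelled TGANTCA and the E-box CACCTG, and the p53-family half-site consensus was the last. No matches overlapped in these windows. ITGB6 and ITGB8 are high in AsPC-1 and ITGA5 in PANC-1.
ITGB6, chr2:160200223-160200522, minus strand: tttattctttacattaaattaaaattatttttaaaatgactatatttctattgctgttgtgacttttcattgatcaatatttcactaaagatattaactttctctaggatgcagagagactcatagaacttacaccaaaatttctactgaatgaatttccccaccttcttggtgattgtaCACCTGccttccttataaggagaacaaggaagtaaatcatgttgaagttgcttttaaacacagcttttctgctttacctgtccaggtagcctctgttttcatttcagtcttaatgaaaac
ITGB8, chr7:20330650-20330949, plus strand: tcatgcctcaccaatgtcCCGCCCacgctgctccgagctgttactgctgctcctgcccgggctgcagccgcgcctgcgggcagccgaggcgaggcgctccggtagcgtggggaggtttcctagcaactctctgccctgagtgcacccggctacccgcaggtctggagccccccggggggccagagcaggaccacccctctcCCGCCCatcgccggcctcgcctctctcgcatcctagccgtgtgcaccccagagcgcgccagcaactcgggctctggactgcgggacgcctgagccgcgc
ITGA5, chr12:54419217-54419516, minus strand: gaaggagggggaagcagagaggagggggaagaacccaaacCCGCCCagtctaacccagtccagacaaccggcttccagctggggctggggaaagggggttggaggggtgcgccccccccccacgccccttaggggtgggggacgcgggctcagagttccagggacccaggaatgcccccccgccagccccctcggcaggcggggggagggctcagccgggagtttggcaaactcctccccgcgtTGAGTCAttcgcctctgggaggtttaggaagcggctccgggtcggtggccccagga
The ITGB6 window was 31.7% G and C and held 1 E-box, a sequence present in 20.6% of the 35116 promoter windows of that length. The ITGB8 window was 71.7% G and C with 2 GC boxes, a match found in 45.0% of windows. The ITGA5 window was 69.3% G and C, with 1 GC box and 1 AP-1 site, the latter found in 7.71% of windows. The TATA box, in 11.5% of windows, matched none of the 3. The median window was 58.7% G and C. None of the 3 held the p53-family half-site, which 6.63% of windows held, and a window this short says nothing of sites elsewhere.

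In RNA, the partners of ITGAV thus came as different mixtures. ITGB3, ITGB5, ITGB6 and ITGB8 together amounted to 156 to 181 TPM in AsPC-1 and 291 to 334 TPM in PANC-1. The ratio of that sum to ITGAV was 1.26 to 1.95 in AsPC-1 and 3.33 to 4.24 in PANC-1. ITGB5 was the main component in all libraries, at 76.3% to 82.2% in AsPC-1 and 95.7% to 96.5% in PANC-1. In AsPC-1, ITGB6 and ITGB8 supplied 9.08% to 15.3% and 7.62% to 12%. In PANC-1 they supplied at most 0.0738% and 0.491%, and ITGB3 supplied 2.97% to 3.96%.

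The proportion of ITGB6 to ITGB8 RNA was read in each AsPC-1 library. ITGB6 stood to ITGB8 at 0.841 and 1.05 in the mock libraries, 1.83 and 1.53 with TAp63, and 1.61 and 1.54 with deltaNp63. The 4 construct libraries lay above both mock libraries. This follows from ITGB6 lying above mock and ITGB8 below mock, each without overlap, so it adds nothing to their separate values. The ratio was not tested.

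ITGB5 needs a limit on its level. Its most abundant transcript, ENST00000296181, held 37.9% to 51.0% of the ITGB5 value, and protein-coding transcripts together held 60.5% to 72.1%, the remainder lying on short transcripts with no defined coding sequence. With the canonical transcript of each gene alone, chosen after these shares were seen, ITGB5 made up 63.9% to 75% of the partner sum in AsPC-1 and 91.8% to 92.8% in PANC-1. ITGB6 then made up 10.2% to 20.6% in AsPC-1, and ITGB3 6.46% to 7.52% in PANC-1.

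The order of levels within a line follows from these values. In AsPC-1 mock it ran ITGB1, ITGA3, ITGB5, ITGAV, ITGA2, ITGB8, ITGB6, ITGA5, ITGA1 and ITGB3. Of these neighbours, ITGB8 and ITGB6 had overlapping replicate values. In PANC-1 mock it ran ITGB1, ITGA3, ITGB5, ITGA5, ITGAV, ITGA2, ITGB3, ITGB8, ITGA1 and ITGB6, with ITGAV and ITGA2 closest, at 81.3 TPM for the lower ITGAV library and 80.5 TPM for the higher ITGA2 library.

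The difference between the mock cell lines was then tested on log2(TPM + 1), where 1 unit is a doubling for abundant genes and understates the change of scarce ones. All differences are PANC-1 minus AsPC-1. Of 14767 tested genes, 72.5% had a limma adjusted p under 0.05, with 44.6% higher and 27.9% lower in PANC-1, so passing is the usual state of a gene in this comparison. Among the 9 tested members 8 passed, 5 higher and 3 lower. The sizes were larger than usual for several. Of the 9, 4 differed by more than 3 log2 units, against 6.67% of all tested genes. The median absolute difference was 1.43 for the members and 0.75 for all genes. ITGB3 and ITGB6 met the filter of 1 TPM only through the line where they are high, and ITGA1, low in both lines, was left out. These sizes therefore describe the tested members and are no test of the group.

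The subunits higher in PANC-1 were ITGA5 by 3.63 (SE 0.241, limma adjusted p 3.76e-07) and ITGB3 by 3.58 (SE 0.122, limma adjusted p 2.38e-09). ITGA3 was higher by 1.43 (SE 0.138, limma adjusted p 6.06e-06) and ITGB5 by 1.06 (SE 0.104, limma adjusted p 6.79e-06). ITGA2 differed by 0.57 (SE 0.189, limma adjusted p 0.0193), a call lost without PANC-1 mock replicate 2 (0.41, limma adjusted p 0.142). Without AsPC-1 mock replicate 1 or 2 its adjusted p in limma was 0.0615 or 0.0695, and centring each library on its median gave 0.40 (limma adjusted p 0.096).

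The subunits lower in PANC-1 were ITGB6 with a difference of -3.94 (SE 0.119, limma adjusted p 9.94e-10), ITGB8 with -3.04 (SE 0.141, limma adjusted p 2.46e-08) and ITGB1 with -0.93 (SE 0.109, limma adjusted p 2.73e-05). With a pseudocount of 0.1 the differences of ITGB3 and ITGB6 were 6.41 and -6.24. A difference as large as that of ITGB6 was found in 3.6% of tested genes. ITGAV differed by -0.23 (95% interval -0.52 to 0.05, limma adjusted p 0.12). It passed under quantile normalization, median centring and 3 other settings, always lower in PANC-1, with differences from -0.41 to -0.17 over 20 settings. The median of all genes in this comparison was 0.243, and after median centring the 9 members kept their directions.

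**Figure D2:**
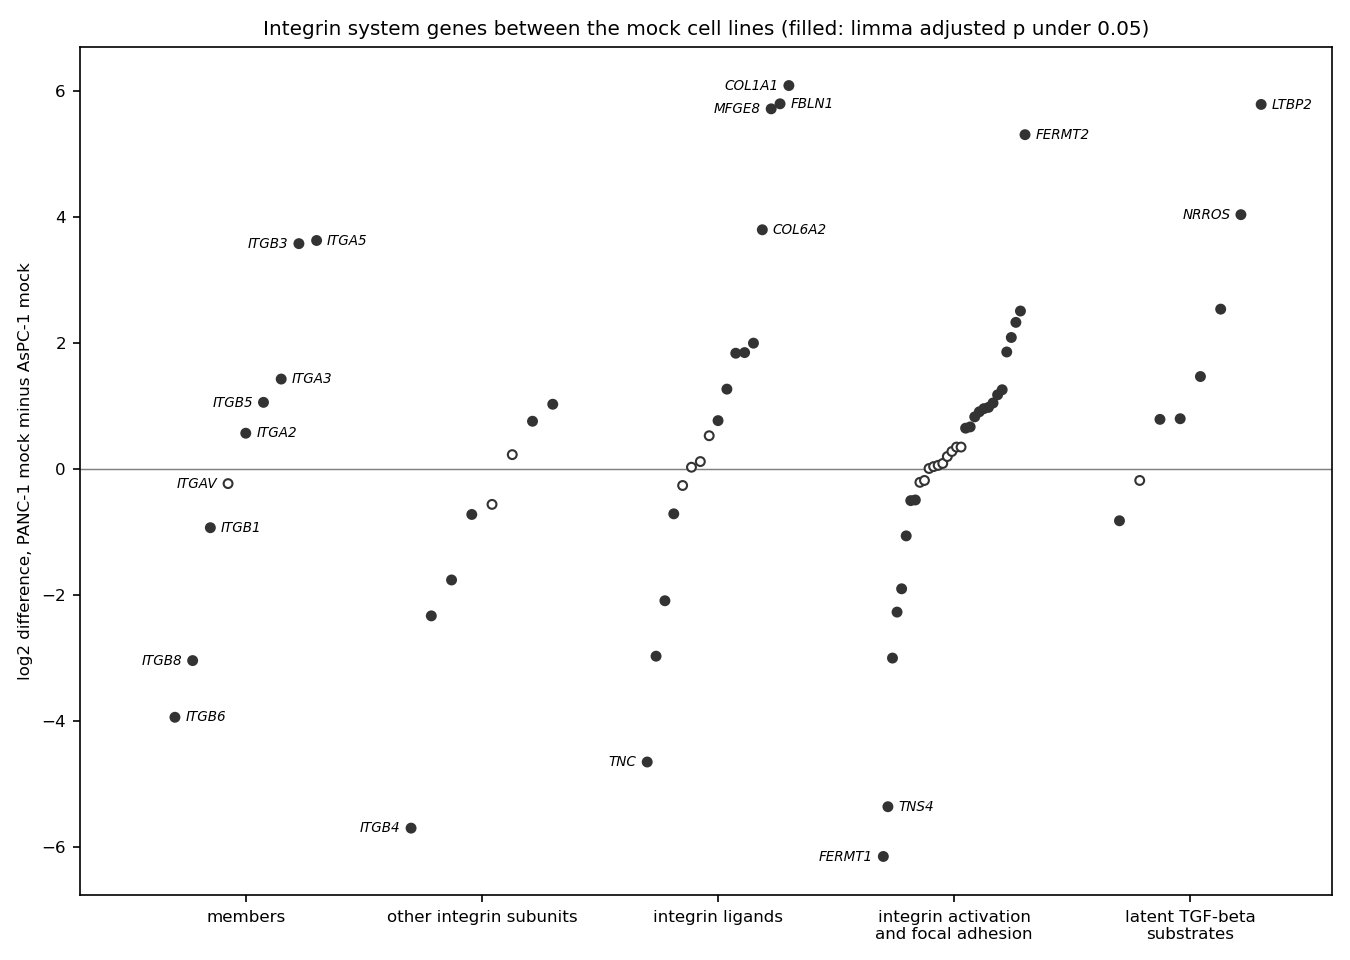
Log2 difference between the mock cultures, PANC-1 minus AsPC-1, for the tested members and for 4 lists of related genes, 1 point a gene, filled where the limma adjusted p is under 0.05. Names are given for the members and for list genes beyond 3 units. ITGA5 and ITGB3 lie at the top of the members and ITGB6 and ITGB8 at the bottom.

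Lists of genes that work with integrins passed between the lines about as often as genes in general, and single genes in them differed widely. The 4 lists hold 82 genes, of which 65 were tested. In PANC-1 mock 31 were higher, 17 were lower and 17 did not pass, where 72.5% of all tested genes passed, so the count is no result about these lists. Of the 32 tested genes of integrin activation and focal adhesions, 14 were higher, 8 were lower and 10 did not pass, with a median difference of 0.318 against 0.243 for all tested genes. The kindlins, which bind beta subunit tails and activate integrins, were exchanged. FERMT1, the kindlin of epithelial cells, had 143 ± 4.3 TPM with AsPC-1 mock against 1.03 ± 0.125 TPM with PANC-1 mock (SD, n = 2). FERMT2, the kindlin of most other cells, was at 0.0862 ± 0.0161 TPM and 42.1 ± 1.33 TPM (SD, n = 2). The differences were -6.15 and 5.31 (limma adjusted p 9.32e-11 and 2.32e-10). These and the other list genes named for this comparison were chosen after their values were seen.

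Of the 17 tested ligands, 9 were higher, 4 were lower and 4 did not pass (median difference 0.771), beside 44.6% of all tested genes higher and 27.9% lower. COL1A1, a chain of type I collagen, went from 0.264 ± 0.0413 TPM in AsPC-1 to 85.1 ± 1.36 TPM in PANC-1 (SD, n = 2). The other chain, COL1A2, was nearly absent from both, at 0.0982 ± 0.0558 and 0.0487 ± 0.0371 TPM in the same order. MFGE8, a secreted ligand of ITGAV receptors, went from 9.38 ± 1.15 TPM in AsPC-1 to 545 ± 0.522 TPM in PANC-1. TNC, tenascin C, stood the other way at 37.9 ± 3.16 and 0.552 ± 0.0814 TPM. FN1, the fibronectin bound by ITGA5, was low in both, at 0.249 ± 0.0596 and 0.822 ± 0.399 TPM, and did not pass (limma adjusted p 0.0613).

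Of 8 tested genes listed for latent TGF-beta (ligands, LTBP genes and carriers), 6 were higher, 1 was lower and 1 did not pass (median difference 1.137). This stands beside the same 44.6% and 27.9% of all tested genes. LTBP2, which binds matrix, averaged 1.18 ± 0.0722 TPM in the AsPC-1 libraries and 120 ± 7.41 TPM in those of PANC-1 (SD, n = 2). NRROS, a carrier of latent TGF-beta, was listed at 0 in both AsPC-1 mock libraries and at 14.9 and 15.9 TPM in PANC-1 mock. Of 8 tested other integrin subunits, 2 were higher, 4 were lower and 2 did not pass (median difference -0.644). ITGB4 of the hemidesmosome averaged 540 ± 21.7 TPM with AsPC-1 mock against 9.54 ± 1.99 TPM with PANC-1 mock (SD, n = 2), a difference of -5.70 (limma adjusted p 3.43e-10).

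The constructs were compared with mock within each line. With TAp63 in AsPC-1, 0 of 9 members passed in limma, where 0.637% of tested genes did, and 2 had an unadjusted p under 0.05. With deltaNp63, 0 of 9 passed against 7.14% of genes, and 1 had an unadjusted p under 0.05. In PANC-1, 0 of 9 passed with TAp63 against 0.00677% of genes, and 0 of 9 with deltaNp63 against 0.0406%, with 0 members at an unadjusted p under 0.05 in either. TAp63 against deltaNp63 gave 0 of 9 in AsPC-1, against 0.0203% of genes, and 0 of 9 in PANC-1, against 0.0271%, again with 0 at an unadjusted p under 0.05. In all 6 comparisons the 95% interval of every tested member stayed within 1 log2 unit either way. The widest bound was -0.75, for ITGA2 with TAp63 in PANC-1. ITGB3 in AsPC-1 (at most 0.0488 TPM) and ITGB6 in PANC-1 (at most 0.223 TPM) lay near 0. For them the log2(TPM + 1) scale leaves little room for a change, so their missing calls and narrow intervals say little.

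ITGB6 had the smallest p among the members in AsPC-1. Its log2 fold change was 0.44 with TAp63 (95% interval 0.17 to 0.70, SE 0.119, limma adjusted p 0.151) and 0.42 with deltaNp63 (95% interval 0.15 to 0.68, SE 0.119, limma adjusted p 0.0604). Both groups lay above mock without overlap, as 11.2% and 11.1% of tested genes did in that direction. In either direction the groups did not overlap for 5 of 9 members with TAp63 and 3 of 9 with deltaNp63, against 46.6% and 52.1% of genes. These contrasts share the mock libraries, in which ITGB6 had nearly equal values.

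The deltaNp63 value of ITGB6 sat at the threshold. It passed under quantile normalization (0.58, limma adjusted p 0.0464), with median centring (0.62, limma adjusted p 0.0363) and when only genes averaging 5 TPM or more were tested (0.42, limma adjusted p 0.0441). Over the 22 settings it ranged from 0.40 to 0.62, with limma adjusted p from 0.0363 to 0.503. The median of all genes in this contrast was -0.119. The TAp63 value ranged from 0.35 to 0.57 and did not pass in any of the 22 settings (limma adjusted p from 0.0882 to 0.786). TAp63 and deltaNp63 gave nearly the same ITGB6 level, with a difference of 0.02 (95% interval -0.25 to 0.29, limma adjusted p 1).

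ITGB8 had the opposite sign in AsPC-1. The log2 fold change was -0.35 with TAp63 (95% interval -0.67 to -0.04, limma adjusted p 0.284) and -0.29 with deltaNp63 (95% interval -0.60 to 0.03, limma adjusted p 0.205), and the construct libraries lay below mock without overlap, as 35.4% and 41.1% of genes did. After median centring the values were -0.22 and -0.08, so the second was near 0 relative to the other genes.

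The remaining members in AsPC-1 varied between -0.15 and 0.18 with TAp63 and between -0.12 and 0.17 with deltaNp63. Several of these values turned sign under another scaling. ITGA2 was at -0.08 with TAp63 and 0.05 after median centring, and ITGAV at -0.08 and 0.05. One library bore on the deltaNp63 group. AsPC-1 deltaNp63 replicate 1 held more ITGB1 (1903 against 1465 TPM) and ITGAV (127 against 92.4 TPM) than replicate 2. Without replicate 2, ITGB1 passed at 0.36 (limma adjusted p 0.0128) and ITGAV at 0.34 (limma adjusted p 0.0159), with the lone remaining library assumed to vary like the other groups.

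**Figure D3:**
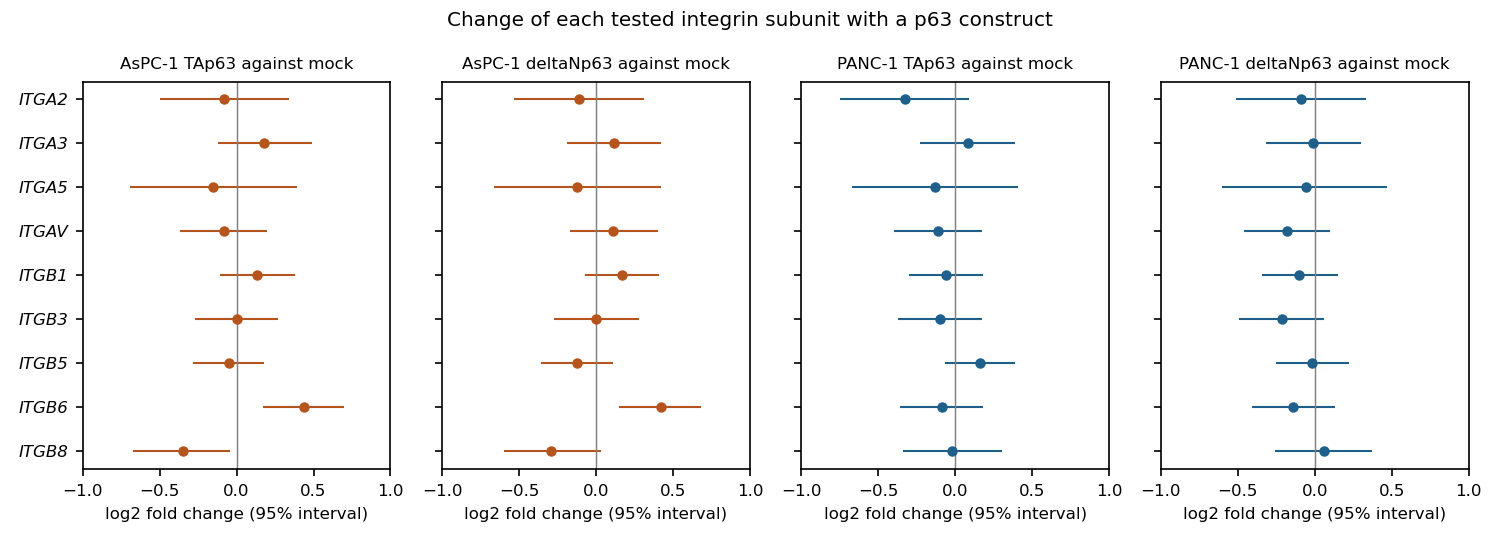
Log2 fold change of each tested member against mock for each construct and line, with its 95% interval from limma. The intervals of ITGB6 with both constructs and of ITGB8 with TAp63 in AsPC-1 leave 0, and in PANC-1 every interval includes 0.

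In PANC-1 the constructs left the members between -0.33 and 0.16 with TAp63 and between -0.21 and 0.06 with deltaNp63. The lowest with TAp63 was ITGA2, at 56.4 and 57.7 TPM against 64.2 and 80.5 TPM in mock (95% interval -0.75 to 0.09, limma adjusted p 1). Groups did not overlap for 6 of 9 members with TAp63, where 42.4% of genes did not, and for 4 of 9 with deltaNp63, where 27.1% did not. TAp63 against deltaNp63 gave 4 of 9 without overlap, against 34.0% of genes, and 0 of 9 in AsPC-1, against 29.5%. ITGB3 was at -0.21 with deltaNp63 (95% interval -0.49 to 0.06, limma adjusted p 1).

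Whether the lines answered differently was tested as an interaction. For TAp63, 0 of 9 members passed in limma, against 0.0745% of genes, and for deltaNp63 0 of 9, against 0.582%, with 1 member at an unadjusted p under 0.05 in each. That member was ITGB6, with differences of -0.52 (SE 0.169, limma adjusted p 0.392) and -0.56 (SE 0.169, limma adjusted p 0.214). In PANC-1 its level is so near 0 that the log2(TPM + 1) scale leaves little room for a change.

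Related genes gave few calls with the constructs. Of the 65 tested list genes, 0 passed with TAp63 in AsPC-1 (9 at an unadjusted p under 0.05) and 0 with either construct in PANC-1 (5 and 2). TAp63 against deltaNp63 gave 0 in each line (8 and 2 at an unadjusted p under 0.05). With deltaNp63 in AsPC-1, 1 rose and 8 fell, where 0.637% of all tested genes rose and 6.51% fell. By list, these were 1 risen and 2 fallen of 17 ligands, 3 fallen of 32 adhesion genes, 2 fallen of 8 latent TGF-beta genes and 1 fallen of 8 other subunits.

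CCN2, a matricellular ligand of ITGAV receptors, rose from 27.6 ± 4.13 to 40.7 ± 3.33 TPM with deltaNp63 in AsPC-1 (SD, n = 2, log2 fold change 0.55, limma adjusted p 0.0398). TGFB1, the latent ligand that ITGB6 and ITGB8 receptors act on, fell from 22.5 ± 0.602 to 13.6 ± 1.6 TPM (log2 fold change -0.69, limma adjusted p 0.0103). LTBP4 fell from 10.4 ± 1.97 to 6.29 ± 0.0999 TPM (-0.64, limma adjusted p 0.0383), and its PANC-1 level was 9 ± 0.0302 TPM with mock and 13.7 ± 1.41 TPM with deltaNp63. The kinase SRC fell by 0.51 on the log2 scale (limma adjusted p 0.0383), the laminin chain gene LAMB1 by 0.50 (limma adjusted p 0.039) and MFGE8 by 0.49 (limma adjusted p 0.0219). Each of these lost its call in at least 6 of 22 settings, CCN2 in 16, and with only the groups compared in the fit each of the 6 had a limma adjusted p of 0.363.

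Transcripts of a member showed a pattern that followed the replicate number. ENST00000261023, the canonical ITGAV transcript, held more of the gene in replicate 1 than in replicate 2 in all 6 groups, by 4.2 to 18.4 percentage points. The canonical ITGA2 transcript, ENST00000296585, did the same in 6 of 6 groups, by 2.6 to 8.9 points. For ITGB6, ENST00000283249 held 61.7%, 61.9% and 69.3% in the replicate 1 libraries of AsPC-1 and 52.5%, 47.4% and 46.3% in the replicate 2 libraries. The top transcripts of ITGA3, ITGB1, ITGB5 and ITGB8 took both directions. Those of ITGA1 and ITGA5 leaned the other way, with a larger share in replicate 2 in 5 and 4 groups and in replicate 1 in 1 group each. That of ITGB3 had a larger share in replicate 1 in 3 groups and in replicate 2 in 0. The gene sums used in the tests add these transcripts together. This pattern was looked at after the shares were seen, and its source was not tested.

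**Figure D4:**
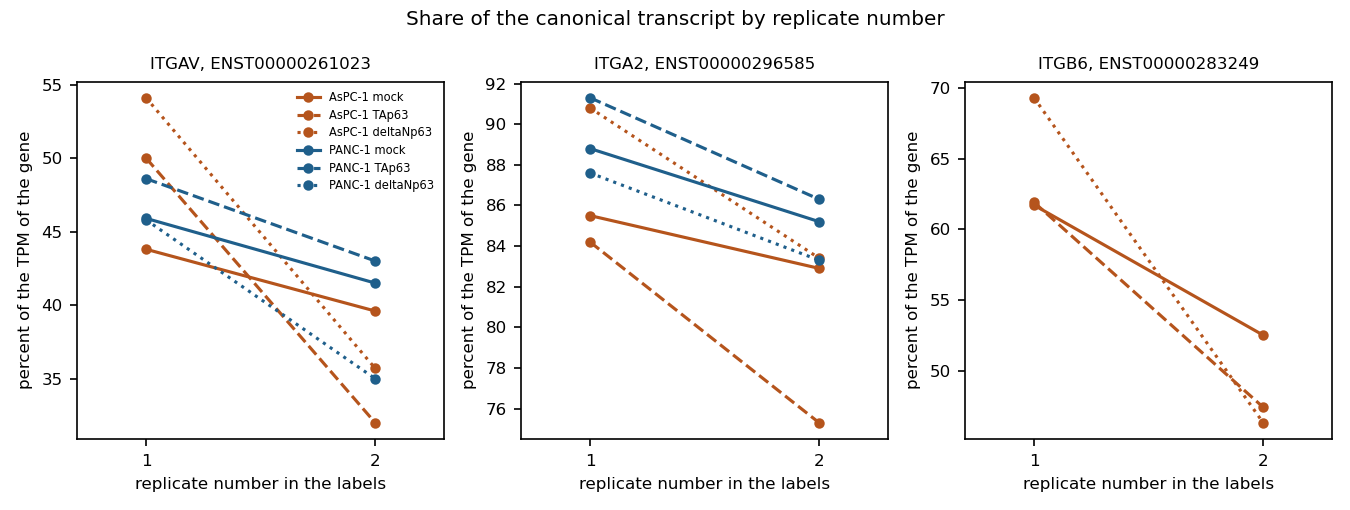
Percent of the TPM of a gene on its canonical transcript in replicate 1 and replicate 2, with 1 line a group, AsPC-1 in orange and PANC-1 in blue, for ITGAV, ITGA2 and, in AsPC-1 alone, ITGB6. In every group the replicate 1 library lies above the replicate 2 library.

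Genes whose pattern was most like a member were sought over the 12 libraries after subtracting the mean of each line. For ITGB6 they were ARPC1A (Pearson's r 0.897), ENSG00000267015 (0.895) and EIF1 (0.888). For ITGB8 they were RANGRF (0.941), MRPL57 (0.913) and L3MBTL3 (0.908). For ITGB1 they were PAQR3 (0.979), GLUD1 (0.971) and TCEA1 (0.969). These are the highest of many correlations over libraries that share their scaling, and describe likeness only.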

How the data were processed

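RNA was measured in 12 libraries, 6 groups of 2, made with a stranded mRNA kit per the labels' protocols. The authors deposited TPM values for 153329 Ensembl transcripts. The quantifier, build and annotation are not given in the sources used here. TPM keeps no depth, so no counting error or floor could be given. Transcripts were paired with genes through GENCODE v44 (hg38), which covered 139819 transcripts (91.2%) and 89.6% to 90.5% of the TPM of a library, and summed to genes. The 13510 unpaired transcripts were left out.

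Genes that reached 1 TPM in 2 or more libraries (14767) were fitted as log2(TPM + 1), pseudocount 1, with limma 3.58.1 (trend) in R 4.3.3, 1 mean per group, 6 residual degrees of freedom. P-values were two-sided, with Benjamini-Hochberg adjustment over all tested genes within a comparison and a threshold of 0.05. Code was tested on simulated data. Where cultures were not separate, p-values measure technical spread. Named genes were the members, TP63, the up to 6 list genes of smallest p that passed in a comparison with a construct, and, for 3 members, the 3 genes most like each. Promoter sequences are from RefSeq. Members, lists and tests were chosen with earlier results of these data known. Alternatives were limma without trend, other scalings, filters and pseudocount, fewer libraries, a replicate block, transcript rows and leaving out each replicate.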

Additional observations from a re-analysis of the deposited data

Results flagged for a closer look

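A test of the difference between the cell lines drew attention to 2 values outside the 10 integrin subunits. For deltaNp63, the effect on LTBP4, a binding protein of latent TGF-beta, was higher in PANC-1 than in AsPC-1 by 1.19 on the log2(TPM + 1) scale (SE 0.205, limma adjusted p 0.0379). LTBP4 was higher than mock in both PANC-1 deltaNp63 libraries and lower in both AsPC-1 deltaNp63 libraries, and the difference lost its call in 13 of 21 settings (limma adjusted p from 0.0142 to 0.491). TP63 itself differed by 2.61 (SE 0.357, limma adjusted p 0.01), which compares the rise over mock in each line. Mock levels of TP63 differed too, with means of 0.0719 TPM in PANC-1 and 0.958 TPM in AsPC-1, so 2.61 is not construct level alone. With deltaNp63 the means were 1001 ± 263 TPM in PANC-1 and 298 ± 74.4 TPM in AsPC-1 (SD, n = 2). No integrin subunit met a condition for inclusion here, and groups of 2 libraries are too small for an outlier test.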

How the results depend on the processing

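The differences between the mock lines held for ITGA3, ITGA5, ITGB1, ITGB3, ITGB5, ITGB6 and ITGB8 in 21 of 21 settings each, and no difference or fold change that passed the threshold turned direction. Several member values with the constructs that did not pass turned sign in at least 1 setting. Between the mock lines the number of members past the threshold was 8, and 7 to 9 over the settings, the changes lying in ITGA2, ITGAV and, without a filter on low values, ITGA1. For deltaNp63 in AsPC-1 the number was 0, and 1 under quantile normalization, median centring and the 5 TPM mean, each time ITGB6. Leaving out each replicate gave 0 to 2 members for that contrast, 0 to 1 for TAp63 against deltaNp63 in AsPC-1, and 0 to 2 for the line difference in the deltaNp63 effect. All of those calls, of ITGAV or ITGB1, came from leaving out AsPC-1 deltaNp63 replicate 2. The other 5 comparisons with constructs kept a count of 0 in all settings. With the replicate number within a line as a block, 7 members passed between the mock lines, ITGA2 being lost (0.34, limma adjusted p 0.109), and 0 elsewhere. For ITGB6 with deltaNp63 the block gave 0.42 (limma adjusted p 0.0654). Deviations of same-numbered libraries correlated between -0.094 and 0.293 across genes, so gene levels do not show that the number pairs them, although the canonical ITGAV and ITGA2 transcript shares followed it in 6 of 6 groups. The causes of these changes were not tested.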
